A study of Mus musculus with 18 samples.

Results

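A set of 48 genes stood higher in induced beta cells at 10 days (D10) than in every other group of the study. They were chosen on the measured values. Log2 of the deposited signals was quantile-normalized over the 18 arrays, a gene had to be detected on all 3 D10 arrays with a detection p-value under 0.01, and its D10 mean had to lie at least 1 above each of the 5 other group means on the log2 scale. Of 18118 gene symbols, 6277 were detected on all 3 D10 arrays and 53 passed. Gast and 4 symbols beginning H2- were then left out by name, which gave the 48 members. H2-K2 stayed among them because its deposited symbol is EG630499.

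The mice were Rag1-/-, a genotype that lacks mature B and T cells. Adenovirus was injected into the pancreas (splenic lobe), islets were taken out, and Cherry+ cells were sorted from the digested acinar fraction. The groups, with 3 arrays each, were induced beta cells at D10, at 30 days (D30), at 60 days (D60) and at 7 months (7m), endogenous beta cells (Beta) and acinar cells (Acinar). The labels name neither the genes that the virus carried nor the age of the mice. Since they do not state whether a group's arrays are separate animals, a p-value here reflects array-to-array spread alone, which may be technical.

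Acinar cells make the digestive enzymes of the pancreas, and beta cells make insulin. Islet transcription factors that are forced on in acinar cells can turn them into cells that make insulin. In such conversions, genes of neither the starting nor the final cell type can be active for a time. In RNA from sorted bulk samples, fewer cells of a type and less RNA per cell cannot be told apart.

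A level below is log2 of the signal after background correction (offset 16) and quantile normalization. A gene counts as measured on an array where its detection p-value was under 0.01 and its signal exceeded the mean of the negative controls. For lower bounds, the limit on an array was the lowest level of the measured genes whose p-value lay on the grid of steps that the negative controls give, and it ran from 5.02 to 6.12 over the arrays. Genes with p-values off that grid, Klk1b9 and Slc7a7 among them, could be measured below it. In 14 members some array lay above that limit without being detected, since the deposited p-value does not always follow the signal; Grasp, Ms4a7 and Mgat4b had the most such arrays. Where no array of the dimmer group measured a gene, or some array of it lay below that limit, the fold is given as a lower bound. Levels are compared within a gene and not between genes.

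Summed linear signals of 14 acinar enzyme markers were 284000 to 287000 on the D10 arrays, against 295000 to 302000 on the Acinar arrays. Those of 10 beta cell markers were 25700 to 26700 at D10, against 307 to 328 in Acinar and 72200 to 72900 in Beta, so the D10 samples carried RNA of both kinds. Dendritic cell and B cell markers were measured in no group. Array medians of the deposited signal ran from 56.8 to 81.6, and 5990 to 7745 symbols were detected per array. Same-numbered arrays of D60 and 7m deviated from their group means together, with correlations over the genes tested of 0.79 to 0.86, whereas same-numbered arrays of the other pairs of groups gave −0.04 to 0.07. The median SD within a group was 0.164 at D60 and 0.169 at 7m, against 0.058 to 0.091 in the other groups. D60 and 7m are therefore not read as independent times, and the tests of late cells use 7m.

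The margin of a member is its D10 mean minus the highest of the 5 other group means on the scale of the rule. It is a description, because the rule used it. It was 1.88 in Slc5a10, 1.83 in BC004853, 1.64 in Cd6 and 1.56 in Lgals3, and under 1.2 in 30 members. Just inside the limit lay Tdh (1.012), MGC27770 (1.011) and Mgat4b (1.003), and just outside it Wbp1 (0.998), Mapk13 (0.989) and Pacs1 (0.984). The group next below D10 was D30 in 32 members, 7m in 7, Acinar in 5, D60 in 4 and Beta in 0. In all 48 the lowest D10 array stood above the other 15 arrays. The median range over the 3 D10 arrays was 0.098, and the widest was 0.515, in Spns1.

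What lay beneath the D10 level differed between members. No Acinar array measured 18 of them, and no Beta array measured 28. At D30 all but 1 were measured on at least 1 array. The exception was the transcribed pseudogene 2210409E12Rik, with 6.36, 6.62 and 6.34 at D10, which was measured in no other group. All 48 were called higher at D10 than in Acinar (median difference 2.30) and higher than at D30 (median 1.48). The rule fixes these calls, so they are no test. Of all 8942 genes tested, 79.8% were called in D10 versus Acinar and 61.2% in D10 versus D30.

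**Figure D1:**
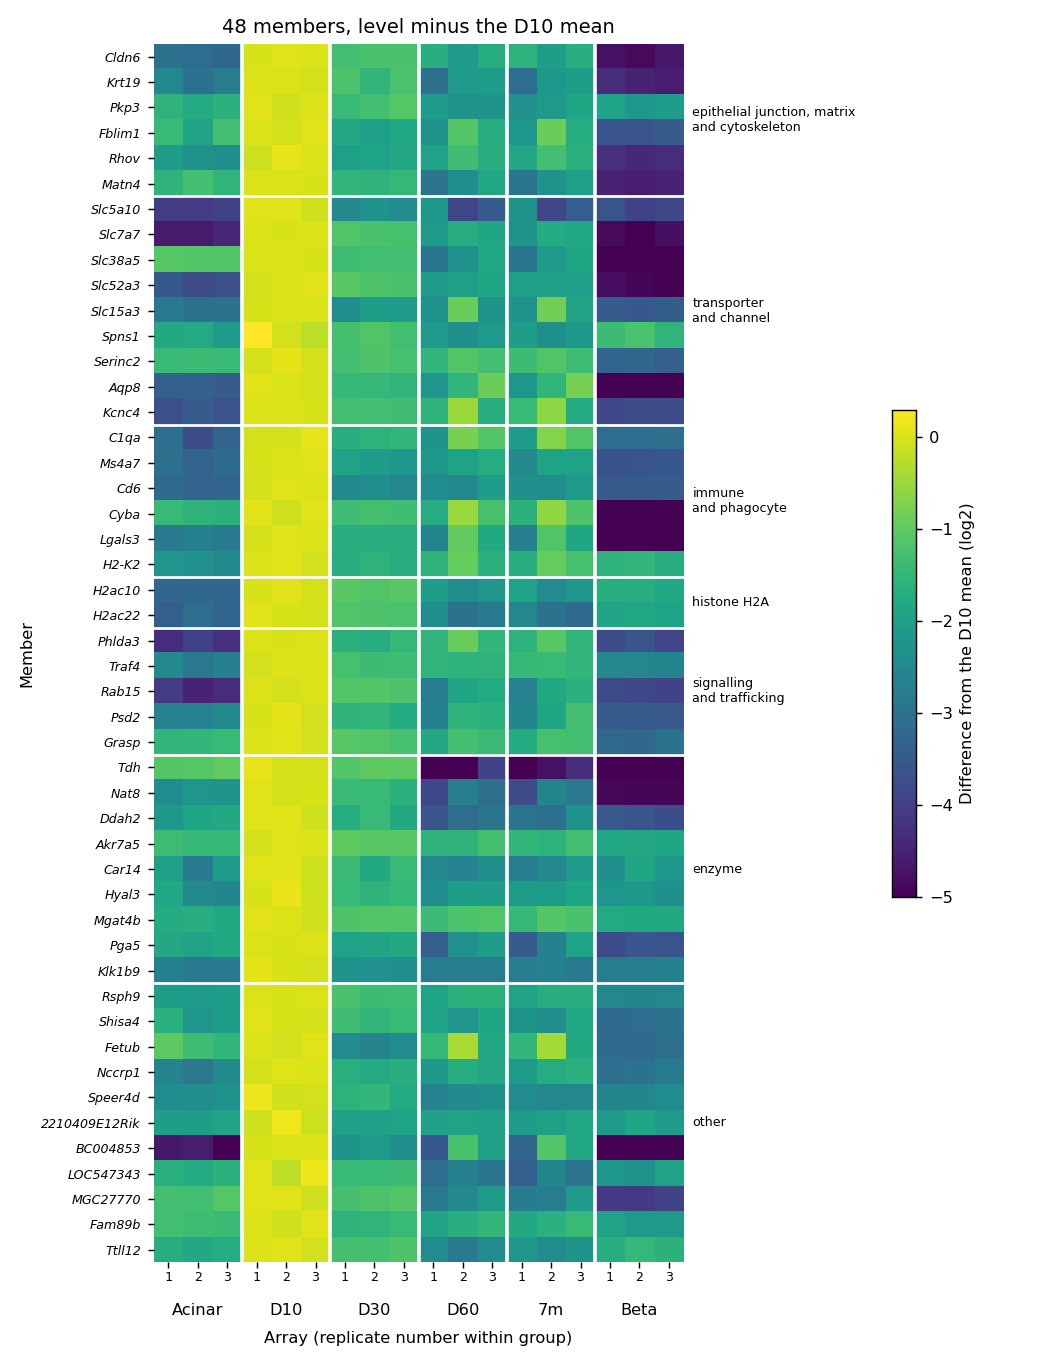
Level of the 48 members on each of the 18 arrays, as the difference from the member's D10 mean (log2; the darkest colour stands for 5 or more below it), with members grouped by role and arrays 1 to 3 in each group. D10 is highest in every row, as the rule requires, and the D60 and 7m columns of the same number look alike.

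The 5 comparisons without D10 arrays were tested with limma over 8942 genes with Benjamini-Hochberg adjustment, and a gene is called at an adjusted p under 0.05. All 48 members were among the genes tested. At D30, 34 members were higher than in Acinar, 1 was lower and 13 were not called. The higher calls were 70.8% of members, where 39.7% of all genes were called higher and 79.4% in either direction. The members' median difference was 0.75, against 0.004 over all genes. The share of all calls that were higher was 50%, 77.8% after median scaling and 93.6% on the series matrix values, and no higher member changed sign under either.

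Between 7m and D30, 1 member was called higher at 7m and 25 lower. The lower calls were 52.1% of members, where 31.5% of all genes were called lower and 62.4% in either direction. The members' median difference was −0.44. Of all calls, 49.4% were higher, against 32.5% after median scaling and 22.4% on the series matrix values. Against Acinar, 23 members were higher at 7m and 12 lower, where 37.8% and 39.9% of all genes were, and 77.7% in either direction. That split was 33 to 7 after median scaling and 37 to 2 on the series matrix values, and 9 of the 12 lower members turned sign under at least 1 of these. Median scaling shifted the median of all genes in this comparison to 0.50 and the series matrix to 0.72.

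Against the endogenous cells, 35 members were higher at 7m than in Beta and 5 were lower, where 34.7% and 43.2% of all genes were, and 77.9% in either direction. The members' median difference was 1.32, against −0.10 over all genes. Of all calls, 44.6% were higher, against 30% after median scaling. In Beta versus Acinar, 5 members were higher and 27 lower, where 42.1% and 37.4% of all genes were, and 79.5% in either direction. This split was 15 to 26 after median scaling and 18 to 14 on the series matrix values, with all-gene medians of 0.95 and 1.06. Of the calls just given, those of genes measured in neither group were 1 in 7m versus Acinar, 1 in 7m versus Beta and 3 in Beta versus Acinar.

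**Figure D2:**
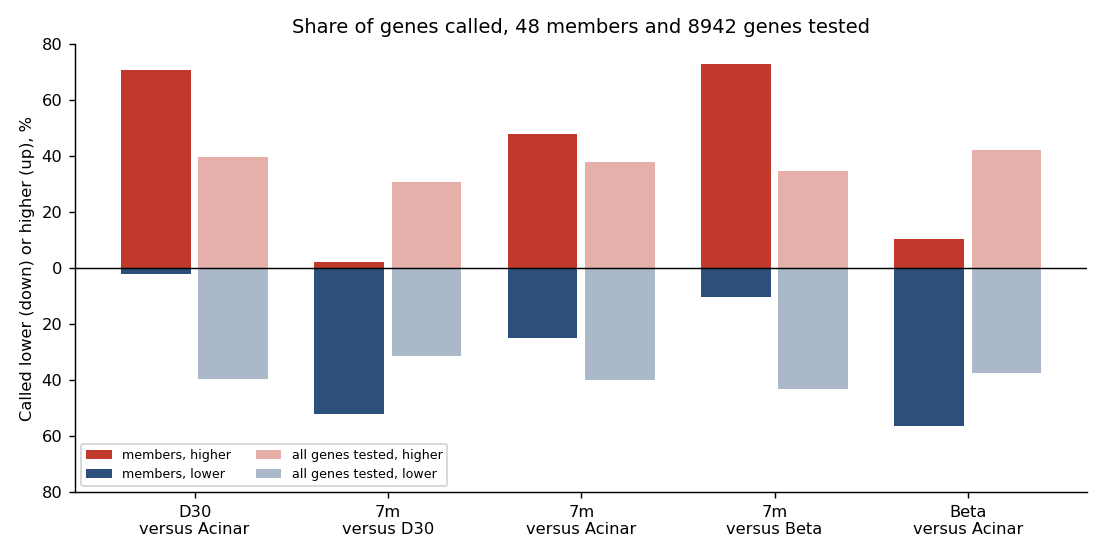
Share of genes called higher (upward bars) or lower (downward bars), in percent, in the 5 comparisons without D10 arrays; dark bars are the 48 members and pale bars all 8942 genes tested. The members' share of higher calls is 70.8% in D30 versus Acinar and 72.9% in 7m versus Beta, where all genes have 39.7% and 34.7%.

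Transporter and channel genes made up 9 members. At D30, 7 of them were higher than in Acinar, where 70.8% of members and 39.7% of all genes were, and 2 were not called. At 7m 4 were lower than at D30, where 52.1% of members and 31.5% of all genes were. Against Acinar 6 were higher and 2 lower at 7m, where 37.8% and 39.9% of all genes were. The role groups here and below were formed after the values were seen, and their counts were not tested against these shares. Slc7a7 encodes a subunit of an exchanger of cationic and neutral amino acids. Its levels were 5.51, 5.51 and 5.71 in Acinar, 10.14, 10.12 and 10.15 at D10, 8.99, 8.91 and 8.89 at D30, 7.99, 8.43 and 8.27 at D60, 7.88, 8.40 and 8.31 at 7m, and 5.27, 5.12 and 5.35 in Beta. The D30 arrays were at least 7.75-fold higher (limma adjusted p = 1.32e-12) than the Acinar arrays, of which 2 of 3 measured it. At 7m it differed from D30 by −0.73 ± 0.13 (limma adjusted p = 0.000126), and no 7m array overlapped with Acinar or D30.

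Slc52a3, a riboflavin transporter, took the same steps, with 6.24, 6.0 and 6.06 in Acinar, 9.74, 9.76 and 9.81 at D10, 8.72, 8.62 and 8.54 at D30, 7.77, 7.81 and 7.77 at 7m, and 4.97, 4.84 and 4.77 in Beta. No Beta array measured it, and 7m was at least 5.97-fold higher (limma adjusted p = 5.21e-14). Aqp8, a water channel, had levels of 7.80, 7.81 and 7.73 in Acinar, 11.24, 11.17 and 11.13 at D10, 9.73, 9.70 and 9.65 at D30, 8.97, 9.67 and 10.40 at 7m, and 4.55, 4.61 and 4.54 in Beta. Its 7m arrays spread around the D30 level, with a difference of −0.02 ± 0.30 (limma adjusted p = 0.971), and they were at least 22.2-fold higher (limma adjusted p = 3.36e-10) than in Beta. Kcnc4, a subunit of a voltage-gated potassium channel, was at least 2.39-fold higher (limma adjusted p = 1.16e-06) at D30 than in Acinar, though only 2 of 3 D30 arrays were detected.

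Slc38a5, a glutamine transporter, had a different course, with 12.85, 12.81 and 12.81 in Acinar, 13.94, 13.94 and 13.91 at D10, 12.58, 12.61 and 12.64 at D30, 10.99, 11.62 and 12.09 at D60, 10.99, 11.79 and 12.07 at 7m, and 8.93, 8.88 and 8.90 in Beta. It was already high in acinar cells, and D30 differed from Acinar by −0.21 ± 0.24 (limma adjusted p = 0.442). The arrays of these 2 groups did not overlap, with SDs of 0.029 at D30 and 0.023 in Acinar. The pooled SE also holds the spread at 7m, where the SD was 0.56. At 7m Slc38a5 lay below D30 by a difference of −1.0 ± 0.24 (limma adjusted p = 0.00211). Against Acinar the 7m difference was −1.20 ± 0.24 (limma adjusted p = 0.000282), and against Beta it was 2.71 ± 0.24 (limma adjusted p = 4.76e-08). Spns1, a lysosomal lipid transporter, was at 6.26, 5.95 and 6.14 at 7m, against 6.94, 7.10 and 6.77 in Beta, a difference of −0.82 ± 0.13 (limma adjusted p = 4.24e-05). Serinc2, of a family of serine incorporators, passed no test among Acinar, D30 and 7m. Slc15a3, a transporter of histidine and peptides in endolysosomes, was at 5.43, 5.79 and 5.74 at D30, against 4.98, 4.83 and 4.84 in Acinar, where no array measured it, and its call (limma adjusted p = 0.0452) was lost in most fits that left out 1 array.

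Slc5a10, a sodium-coupled sugar transporter, had the largest margin. Its levels were 4.44, 4.43 and 4.56 in Acinar, 8.58, 8.56 and 8.43 at D10, 6.02, 6.23 and 6.08 at D30, 6.31, 4.63 and 5.07 at D60, 6.27, 4.64 and 5.11 at 7m, and 4.91, 4.59 and 4.66 in Beta. No Acinar or Beta array measured it, and at D60 and 7m only replicate 1 did. D30 was at least 1.2-fold higher (limma adjusted p = 0.000818) than Acinar. The 7m call against Acinar (limma adjusted p = 0.0445) was lost in most fits that left out 1 array, among them those without 7m replicate 1. Its promoter is shown because it has the largest margin and holds motifs that were searched. Capitals mark a match of GAAANNGAA on the opposite strand and an E-box, CAGATG, in 1 of its 2 windows (RefSeq, GRCm38.p6, 250 bases before to 50 after the gene start).
Slc5a10, chr11:61719936-61720235, minus strand: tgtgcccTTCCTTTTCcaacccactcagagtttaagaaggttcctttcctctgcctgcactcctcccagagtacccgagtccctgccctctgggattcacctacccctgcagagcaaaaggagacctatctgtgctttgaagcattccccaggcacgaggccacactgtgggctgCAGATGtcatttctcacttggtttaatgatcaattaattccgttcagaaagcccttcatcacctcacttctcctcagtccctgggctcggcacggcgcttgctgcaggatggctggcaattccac

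Genes of epithelial junctions, matrix and cytoskeleton made up 6 members. At D30, 3 were higher than in Acinar, where 39.7% of all genes were, and 3 were not called. At 7m 4 were lower than at D30 and 5 higher than in Beta, where 31.5% and 34.7% of all genes were. All 6 were lower in Beta than in Acinar, where 37.4% of all genes were. These calls depended on the scaling. For Pkp3 the sign turned under median scaling and on the series matrix values, and Cldn6 was no longer called on the latter. Over all members, the lower calls in Beta versus Acinar fell from 27 to 14 on the series matrix values. Cldn6, a tight junction claudin of embryonic epithelia, was at 7.85, 7.77 and 7.63 in Acinar, 10.84, 10.89 and 10.85 at D10, 9.58, 9.64 and 9.63 at D30, 9.20, 8.79 and 9.14 at D60, 9.29, 8.80 and 9.20 at 7m, and 6.10, 5.99 and 6.20 in Beta. The D10, D30 and Acinar arrays were apart from one another and from Beta, and D60 and 7m overlapped only with each other. At 7m it exceeded Beta by 3.0 ± 0.12 (limma adjusted p = 3.94e-12) and Acinar by 1.35 ± 0.12 (limma adjusted p = 4.72e-08).

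Krt19, a keratin of duct cells, was at 7.03, 6.55 and 6.78 in Acinar, 9.59, 9.58 and 9.51 at D10, 8.36, 8.06 and 8.36 at D30, 6.47, 7.39 and 7.51 at 7m, and 5.25, 5.08 and 4.98 in Beta. It was higher at D30 than in Acinar by 1.47 ± 0.26 (limma adjusted p = 7.24e-05), while the 7m arrays overlapped with Acinar at a difference of 0.34 ± 0.26 (limma adjusted p = 0.243). Of 12 other duct markers tested, 6 were higher and 4 lower at D10 than in Acinar, where 40.2% and 39.6% of all genes were. Of all calls in that comparison 50.4% were higher, against 69.3% after median scaling and 85.5% on the series matrix values. Cldn4, another claudin, exceeded Acinar at D10 by 5.86 ± 0.11 (limma adjusted p = 4.03e-16), but its D30 level was higher still, so it is no member. Summed duct marker signals were 16500 to 16700 in Acinar, 40500 to 43600 at D10 and 46000 to 46200 at D30. The part of duct cells in the Krt19 level was not tested.

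Rhov, a small GTPase, missed the threshold between D30 and Acinar at 0.32 ± 0.14 (limma adjusted p = 0.0514), and was higher at 7m than in Acinar by 0.66 ± 0.14 (limma adjusted p = 0.000607). Matn4, a matrix protein, was at 6.10, 6.72 and 7.0 at 7m, against 7.5, 7.46 and 7.54 at D30, a difference of −0.90 ± 0.23 (limma adjusted p = 0.00309). Pkp3, a desmosome protein, was higher at D30 than in Acinar by 0.39 ± 0.11 (limma adjusted p = 0.00557). Fblim1, an adaptor at cell-matrix contacts, passed no test among Acinar, D30 and 7m. Of 17 adhesion and junction genes tested that are no members, 6 were higher and 8 lower at D10 than in Acinar. Over all genes these shares were 40.2% and 39.6%.

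C1qa, Ms4a7, Cd6, Cyba, Lgals3 and H2-K2 are immune and phagocyte genes. At D30, 5 of the 6 were higher than in Acinar, and at 7m 5 were, where 39.7% and 37.8% of all genes were. All 6 missed the threshold between 7m and D30, where 62.4% of all genes were called. C1qa, a chain of complement C1q that macrophages make, was at 5.91, 5.21 and 5.64 in Acinar, 8.90, 8.93 and 9.06 at D10, 7.32, 7.39 and 7.45 at D30, 6.70, 8.18 and 7.85 at D60, 6.90, 8.28 and 7.83 at 7m, and 5.86, 5.88 and 5.92 in Beta. No Acinar array measured it, and D30 was at least 2.7-fold higher (limma adjusted p = 0.000139) than Acinar. The 7m arrays reached from below to above all D30 arrays.

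Ms4a7, a membrane protein of macrophages, was at 5.06, 4.78 and 4.99 in Acinar, 8.07, 8.10 and 8.14 at D10, 6.16, 6.03 and 5.88 at D30, 5.91, 6.19 and 6.38 at D60, 5.65, 6.18 and 6.16 at 7m, and 4.45, 4.48 and 4.57 in Beta. It was measured on 2 of 3 D30 arrays and on no Acinar, D60, 7m or Beta array, so its higher calls at 7m set undetected values against each other. Cd6, a scavenger-type receptor of lymphocytes, was at 4.74, 4.58 and 4.64 in Acinar, 7.87, 7.95 and 7.91 at D10, 5.45, 5.52 and 5.36 at D30, 5.57, 5.50 and 5.77 at 7m, and 4.43, 4.43 and 4.44 in Beta, with no Acinar or Beta array measuring it. The 7m and D30 levels of Cd6 differed by 0.18 ± 0.10 (limma adjusted p = 0.14). Summed T and NK cell marker signals were 534 to 588 at D10, against 573 to 600 in Acinar, and the part of such cells in the Cd6 level was not tested.

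Lgals3 encodes galectin-3, a lectin of macrophages and injured epithelium, and was at 7.42, 7.57 and 7.41 in Acinar, 10.19, 10.27 and 10.25 at D10, 8.57, 8.55 and 8.59 at D30, 7.62, 9.25 and 8.45 at D60, 7.55, 9.10 and 8.38 at 7m, and 5.10, 5.07 and 5.12 in Beta. It was higher at D30 than in Acinar by 1.10 ± 0.34 (limma adjusted p = 0.00767) and at 7m at least 8.69-fold higher (limma adjusted p = 3.44e-07) than in Beta. Cyba, a subunit of the phagocyte NADPH oxidase, was at 9.0, 8.87 and 8.82 in Acinar, 10.49, 10.32 and 10.46 at D10, 9.08, 9.16 and 9.09 at D30, 8.83, 9.83 and 9.25 at 7m, and 5.05, 5.12 and 4.98 in Beta. It passed no test among Acinar, D30 and 7m, and at 7m it was at least 17.2-fold higher (limma adjusted p = 2.87e-10) than in Beta. H2-K2 is a transcribed class I histocompatibility pseudogene, nearly identical to H2-K1, and its signal may include that gene. H2-K1 itself passed the rule, with a margin of 1.067, and was left out by name. H2-K2 was higher in Beta than in Acinar by 0.75 ± 0.17 (limma adjusted p = 0.000731).

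Summed macrophage marker signal was higher at D10 than in Acinar and lower at D30 than in Acinar. Of 24 macrophage and myeloid markers tested, C1qa and Ms4a7 are members. Of the other 22, 16 were higher and 2 lower at D10 than in Acinar, where 40.2% and 39.6% of all genes were. The higher share of all calls there was 50.4%, against 85.5% on the series matrix values. Over 32 markers in the file the summed linear signal was 3540 to 3680 in Acinar, 9150 to 9270 at D10 and 3070 to 3250 at D30, with 412 to 438 in Beta. Cd68, a lysosomal protein of macrophages, was at least 6.62-fold higher at D10 than in Acinar (limma adjusted p = 1.26e-09), and Mrc1, a mannose receptor, was at least 4.18-fold lower (limma adjusted p = 2.65e-06). By group mean Cd68 was at 5.047 in Acinar and 7.115 at D30, and Mrc1 at 7.706 and 5.48, so single markers moved both ways. At D10, 22 markers were measured, and Csf1r, Lyz1, Cd163, Mrc1, Itgam, Fcgr1, Msr1, Gpnmb, Spi1 and Ptprc were not. The part of macrophages in the members' levels was not tested.

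The late arrays differed in the same markers. Without the 2 members, the summed signal of 30 markers was 3960, 12700 and 7130 on replicates 1, 2 and 3 of D60 and 3940, 12500 and 7450 on those of 7m. BC004853 was at 6.48, 8.60 and 7.92 and Slc15a3 at 5.53, 7.0 and 5.94 on the 7m arrays, both highest on the array with the most marker signal. Slc5a10, given above, was lowest on that array. Of the immune and phagocyte members, C1qa, Lgals3, Cyba, H2-K2 and Ms4a7 were highest on it, and Cd6 was lowest. At D60 Ms4a7 was highest on replicate 3. Kcnc4, Fetub and Rhov, of other role groups, were also highest on replicate 2 of 7m. Over all 48 members, 21 were highest on replicate 2 of 7m and 32 lowest on replicate 1. No count over all genes stands beside these, so they are not read as a trait of the members. Summed mesenchymal markers also spread, over 5690 to 13900 at D60 and 5620 to 13700 at 7m. Their sums were 519 to 555 at D10, against 6810 to 6970 in Acinar.

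**Figure D3:**
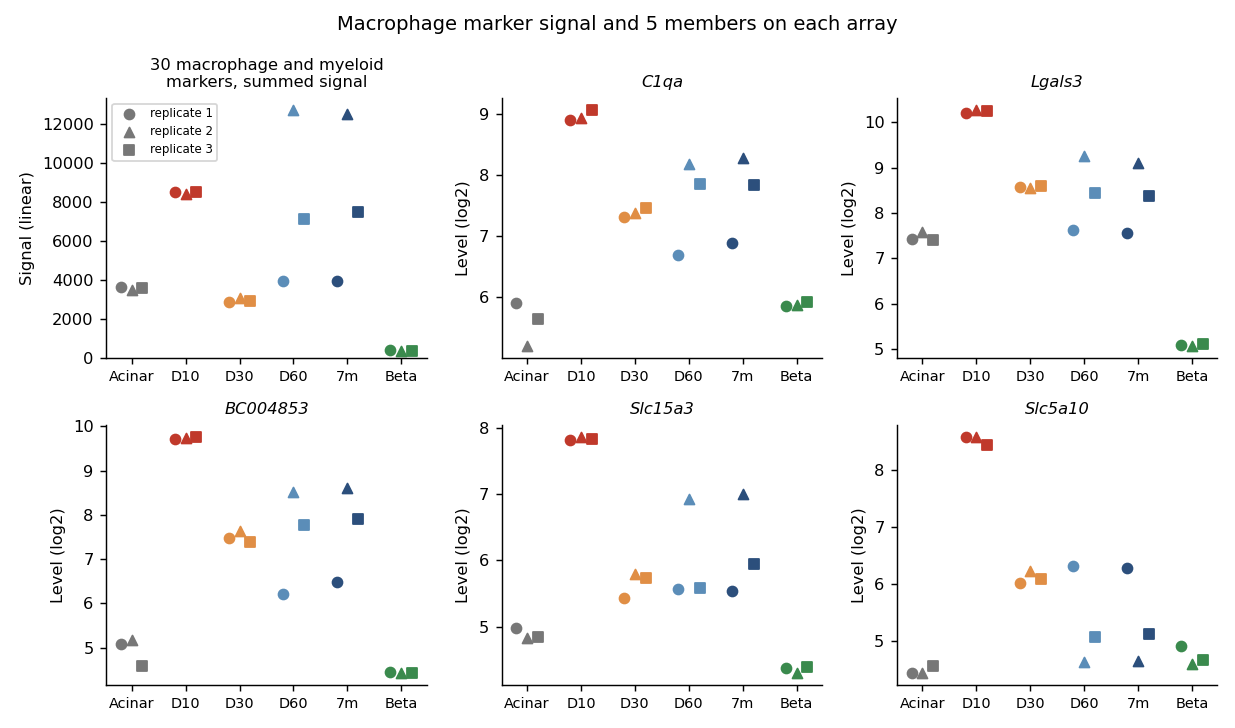
Summed linear signal of 30 macrophage and myeloid markers that are no members (upper left) and levels (log2) of 5 members on each array, with a marker shape for each replicate number. On the D60 and 7m arrays replicate 2 is highest in the marker sum, C1qa, Lgals3, BC004853 and Slc15a3, and lowest in Slc5a10. Cd6, not shown, is lowest on replicate 2 in both groups.

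The promoter of Ms4a7 is shown as that of a macrophage gene that holds motifs searched. Capitals mark GAAANNGAA, the core of an interferon response element, and TGANTCA, an AP-1 site, in 1 of its 2 windows (RefSeq, GRCm38.p6). GAAANNGAA occurred on either strand in 3 of 31 members with a window (9.68%) and in 9.76% of all genes with one. Of 35 interferon-stimulated genes tested, none of them a member, 16 were higher and 13 lower at D10 than in Acinar. The shares over all genes were 40.2% and 39.6%.
Ms4a7, chr19:11334646-11334945, minus strand: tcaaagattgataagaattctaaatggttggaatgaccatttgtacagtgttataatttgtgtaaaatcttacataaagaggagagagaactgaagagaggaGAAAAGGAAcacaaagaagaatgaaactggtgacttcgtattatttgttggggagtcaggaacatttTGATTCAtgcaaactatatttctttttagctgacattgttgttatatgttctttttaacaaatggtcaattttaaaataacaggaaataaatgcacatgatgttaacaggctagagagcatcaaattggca

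H2ac10 and H2ac22 encode core histone H2A and lie in histone gene clusters whose output is tied to DNA replication. H2ac10 was at 7.14, 7.15 and 7.15 in Acinar, 10.37, 10.44 and 10.34 at D10, 9.33, 9.25 and 9.30 at D30, 8.34, 7.95 and 8.15 at D60, 8.44, 7.95 and 8.15 at 7m, and 8.73, 8.69 and 8.56 in Beta. H2ac22 was at 6.58, 6.87 and 6.68 in Acinar, 10.04, 9.97 and 9.95 at D10, 8.86, 8.80 and 8.78 at D30, 7.58, 6.99 and 7.15 at D60, 7.44, 6.96 and 6.81 at 7m, and 8.08, 8.14 and 8.06 in Beta. By group mean both were lowest in Acinar, and both were lower at 7m than in Beta. Against Beta the 7m difference was −0.48 ± 0.11 (limma adjusted p = 0.000825) for H2ac10 and −1.03 ± 0.15 (limma adjusted p = 1.28e-05) for H2ac22. In Beta they exceeded Acinar by 1.51 ± 0.11 (limma adjusted p = 2.58e-09) for H2ac10 and 1.38 ± 0.15 (limma adjusted p = 3.57e-07) for H2ac22. Such genes are nearly identical in coding sequence, so the signals may hold several copies and the pair may not be independent. Of 15 cell cycle and replication genes tested, none a member, 3 were higher and 11 lower at D10 than in Acinar. Over all genes 40.2% were higher and 39.6% lower. Among the lower ones were Pcna, the sliding clamp of DNA replication (at least 2.67-fold lower), and Birc5, a mitosis protein (at least 3.12-fold lower).

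The promoters of the pair are printed because these members moved together. Capitals mark CCAATCA or its reverse complement, a CCAAT box that was looked for after the values were seen. It lies in the windows of 3 of 31 members, H2ac10, H2ac22 and Speer4d (9.68%), and of 9% of all genes (RefSeq, GRCm38.p6). Position by position and without alignment, 70 of 300 letters are the same (23.3%), and no share for other pairs of windows stands beside this. The longest run that both share has 15 letters, aatgtctggacgcgg. It lies near the end of both windows, after the gene start, and is not read as a shared promoter element.
H2ac10, chr13:23533625-23533924, plus strand: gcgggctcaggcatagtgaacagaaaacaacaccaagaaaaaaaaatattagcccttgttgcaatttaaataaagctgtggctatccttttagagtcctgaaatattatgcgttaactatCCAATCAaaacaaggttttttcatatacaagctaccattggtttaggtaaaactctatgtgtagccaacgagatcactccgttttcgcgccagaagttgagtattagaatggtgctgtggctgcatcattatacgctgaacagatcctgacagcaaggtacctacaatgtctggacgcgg
H2ac22, chr13:21787199-21787498, minus strand: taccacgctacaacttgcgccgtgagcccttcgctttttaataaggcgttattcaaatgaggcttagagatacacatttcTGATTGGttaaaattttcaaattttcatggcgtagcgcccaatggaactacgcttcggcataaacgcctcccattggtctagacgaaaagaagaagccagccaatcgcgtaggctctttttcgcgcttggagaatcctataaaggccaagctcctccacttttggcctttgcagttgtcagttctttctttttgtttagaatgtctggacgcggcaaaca

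All 5 signalling and trafficking members were higher at D30 than in Acinar, where 39.7% of all genes were. At 7m all 5 were higher than in Beta, where 34.7% of all genes were, and 1 was lower than at D30, where 31.5% were. Phlda3, a p53 target that restrains Akt, was at 5.0, 5.35 and 5.01 in Acinar, 9.30, 9.28 and 9.31 at D10, 7.71, 7.59 and 7.83 at D30, 7.76, 8.37 and 7.77 at D60, 7.73, 8.22 and 7.79 at 7m, and 5.51, 5.72 and 5.39 in Beta. At 7m it was at least 4.18-fold higher (limma adjusted p = 2.7e-10) than in Acinar, where 1 of 3 arrays measured it. The 7m and D30 arrays overlapped, at a difference of 0.20 ± 0.16 (limma adjusted p = 0.292). Of 21 other p53 targets tested, 9 were higher and 7 lower at D10 than in Acinar, where 40.2% and 39.6% of all genes were. The cell cycle inhibitor Cdkn1a, which is no member, exceeded Acinar at D10 by 3.94 ± 0.09 (limma adjusted p = 2.78e-15).

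Rab15, a GTPase of recycling endosomes, was at 4.98, 4.56 and 4.73 in Acinar, 9.07, 9.0 and 9.07 at D10, 7.90, 7.93 and 7.87 at D30, 6.39, 7.27 and 7.42 at 7m, and 5.28, 5.18 and 5.11 in Beta, with no Acinar or Beta array measuring it. D30 was at least 4.15-fold higher (limma adjusted p = 9.14e-09) than Acinar, and 7m differed from D30 by −0.88 ± 0.25 (limma adjusted p = 0.0064). Traf4, an adaptor of receptor signalling, was at least 2.3-fold higher (limma adjusted p = 1.3e-10) at D30 than in Acinar. At 7m Traf4 was at least 2.07-fold higher (limma adjusted p = 6.22e-10) than in Acinar. Psd2, an exchange factor for Arf GTPases, was at least 1.32-fold higher (limma adjusted p = 0.00441) at D30 than in Acinar. Grasp, a scaffold in receptor trafficking, was at 8.45, 8.37 and 8.27 at D30, against 8.01, 8.03 and 8.08 in Acinar, where the deposited p-value detected none of the arrays.

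**Figure D4:**
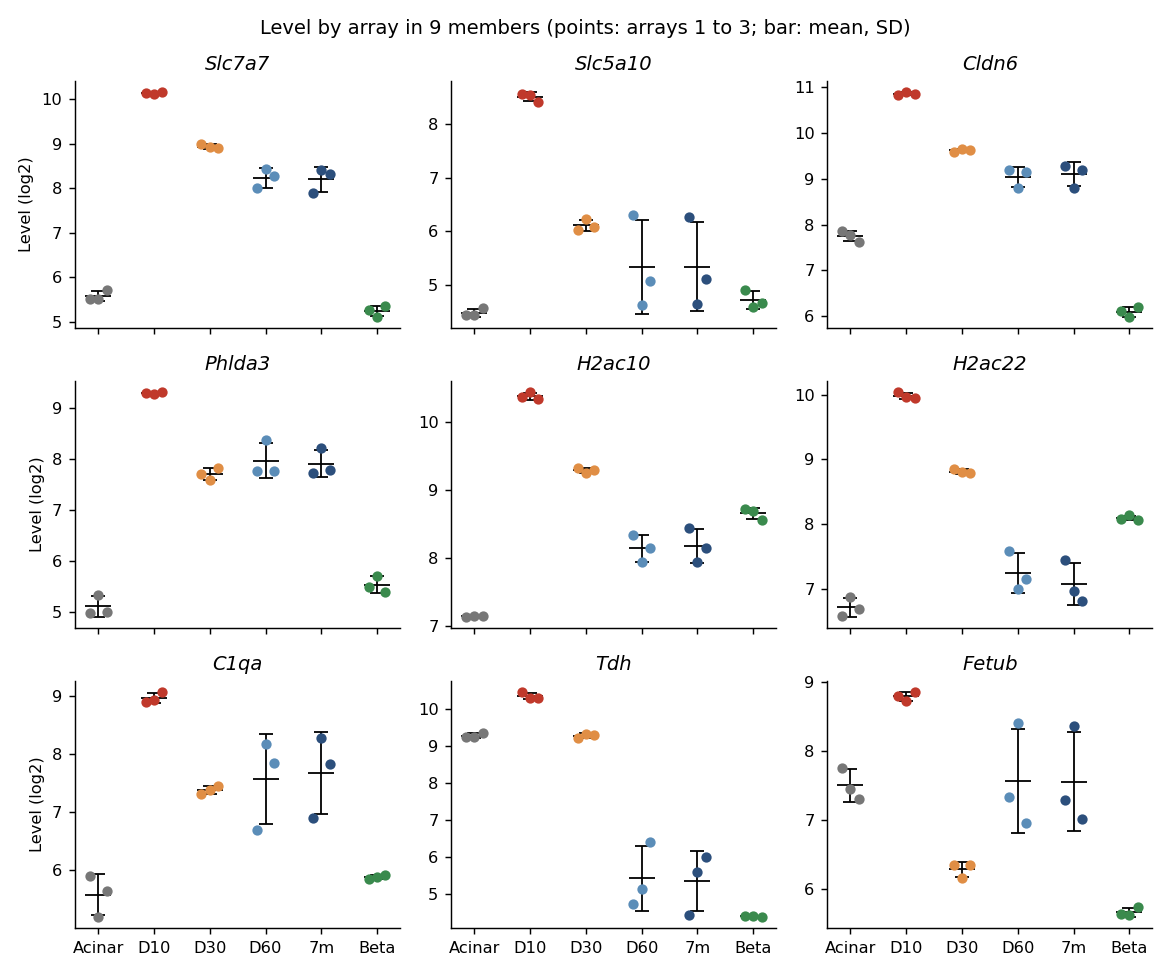
Levels (log2) of 9 members on each array by group; points are arrays 1 to 3, bars the mean and SD, and the vertical axes differ between panels. Slc7a7 and the H2A genes step down from D10 over D30 to 7m, Tdh is near its Acinar level at D30 and far below it at 7m, and Fetub is lower at D30 than at D10, D60 or 7m.

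Of the 9 enzyme members, 6 were higher at D30 than in Acinar, where 39.7% of all genes were. At 7m 8 were lower than at D30, where 31.5% of all genes were. Against Acinar 1 was higher and 4 were lower at 7m, where 37.8% and 39.9% of all genes were. Tdh, the mitochondrial threonine dehydrogenase, was at 9.22, 9.24 and 9.34 in Acinar, 10.44, 10.30 and 10.27 at D10, 9.21, 9.32 and 9.29 at D30, 4.72, 5.15 and 6.40 at D60, 4.44, 5.58 and 6.01 at 7m, and 4.41, 4.42 and 4.39 in Beta. It was measured on 1 of 3 arrays at D60, 2 of 3 at 7m and 0 in Beta. D30 and Acinar overlapped, at a difference of 0.01 ± 0.36 (limma adjusted p = 0.989). Since 1 of the 7m arrays lay below the limit, the difference is a bound, and Tdh was at least 12.4-fold lower at 7m than at D30 (limma adjusted p = 2.04e-07).

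Nat8, an N-acetyltransferase of the endoplasmic reticulum, was at 6.93, 7.11 and 7.09 in Acinar, 9.40, 9.32 and 9.34 at D10, 7.97, 7.93 and 7.74 at D30, 5.56, 6.75 and 6.46 at 7m, and 4.46, 4.46 and 4.42 in Beta. Its 7m difference from Acinar was −0.79 ± 0.26 (limma adjusted p = 0.0118), but it was 0.32 on the series matrix values. Pga5, a pepsinogen, was at 6.34, 6.20 and 6.36 in Acinar, 8.14, 8.11 and 8.16 at D10, 6.18, 6.24 and 6.36 at D30, 4.68, 5.47 and 6.20 at 7m, and 4.38, 4.55 and 4.51 in Beta, and 1 of 3 7m arrays measured it. Ddah2, which degrades methylated arginines, differed between 7m and D30 by −1.12 ± 0.19 (limma adjusted p = 0.000106). Klk1b9, a kallikrein-type protease, was at 7.33, 7.22 and 7.20 at D10 and at 4.98, 4.92 and 4.90 at D30, where 2 of 3 arrays measured it, and it was measured in no other group.

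Akr7a5, an aldo-keto reductase, Car14, a carbonic anhydrase, and Hyal3, a hyaluronidase, were higher at D30 than in Acinar and lower at 7m than at D30. For Akr7a5 these differences were 0.39 ± 0.08 (limma adjusted p = 0.00051) and −0.40 ± 0.08 (limma adjusted p = 0.000631). Mgat4b, which branches N-glycans, was at least 1.38-fold higher (limma adjusted p = 9.46e-05) at 7m than in Acinar, where its arrays stood at 7.31, 7.36 and 7.27 without being detected.

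The other 11 members have varied roles or none assigned here, and BC004853, LOC547343 and MGC27770 matched no RefSeq entry. BC004853 was at 5.08, 5.17 and 4.58 in Acinar, 9.71, 9.74 and 9.76 at D10, 7.49, 7.63 and 7.38 at D30, 6.48, 8.60 and 7.92 at 7m, and 4.44, 4.44 and 4.43 in Beta, with no Acinar or Beta array measuring it. It was at least 3.52-fold higher (limma adjusted p = 0.000111) at 7m than in Acinar. At 7m LOC547343 differed from D30 by −1.58 ± 0.17 (limma adjusted p = 1.07e-06) and MGC27770 by −1.39 ± 0.17 (limma adjusted p = 4.6e-06). Ttll12, of the tubulin tyrosine ligase-like family, differed between 7m and Beta by −0.70 ± 0.10 (limma adjusted p = 1.35e-05). Rsph9, a radial spoke protein of motile cilia, was higher at D30 than in Acinar by 0.74 ± 0.09 (limma adjusted p = 1.63e-06). Nccrp1, Shisa4 and Speer4d were also higher at D30, and Fam89b was not called there.

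Fetub, a secreted protease inhibitor of the fetuin family, was the exception in direction. It was at 7.76, 7.45 and 7.30 in Acinar, 8.79, 8.73 and 8.85 at D10, 6.35, 6.16 and 6.35 at D30, 7.34, 8.40 and 6.96 at D60, 7.29, 8.36 and 7.01 at 7m, and 5.64, 5.62 and 5.74 in Beta. It alone was called lower at D30 than in Acinar, with a difference of −1.22 ± 0.32 (limma adjusted p = 0.00276), which was 0.22 on the series matrix values. It alone was called higher at 7m than at D30, by 1.27 ± 0.32 (limma adjusted p = 0.0031), with replicate 2 of 7m well above the other two.

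By course, 15 members, among them Aqp8, C1qa, Kcnc4, Phlda3 and Traf4, were higher than Acinar at D30 and at 7m, with no call between these times. In 7 others, Cldn6, H2ac10, H2ac22, Rab15, Rsph9, Slc52a3 and Slc7a7, 7m was lower than D30 and still higher than Acinar. Akr7a5, Car14, Hyal3, Klk1b9, Krt19, Shisa4 and Speer4d were higher at D30 than in Acinar and lower at 7m than at D30, with no call between 7m and Acinar. Ddah2, LOC547343, Matn4, MGC27770, Pga5, Slc38a5 and Tdh were not called at D30 and were lower at 7m than both. Nat8, Pkp3, Spns1 and Ttll12 were higher at D30 and lower at 7m than in Acinar. The 7m sides of these last 2 courses depended on the scaling. On the series matrix values the difference between 7m and Acinar turned positive in Nat8, Pkp3, Spns1, Ttll12, Ddah2, LOC547343, Matn4 and Pga5, and after median scaling also in Pkp3, Spns1 and Ttll12. MGC27770 was no longer called on the series matrix values, while Slc38a5 and Tdh stayed called lower under both. 2210409E12Rik, Cyba, Fblim1 and Serinc2 passed none of the 3 tests, and Rhov, Fam89b, Fetub and Grasp each had a course of its own.

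As a description, the median share of the D10 excess over Acinar that remained was 32.85% at D30, 14.65% at D60 and 11.9% at 7m. More than 50% remained in 13 members at D30 and in 7 at 7m. With the endogenous cells as a further point, 7m was higher than both Acinar and Beta, and Beta lower than Acinar, in 9 members, Aqp8, Cldn6, Lgals3, Ms4a7, Psd2, Rhov, Rsph9, Slc52a3 and Slc7a7. Among these, Beta minus Acinar turned positive for Rsph9 and Slc7a7 under both other scalings, and Cldn6, Ms4a7 and Slc52a3 were no longer called lower in Beta on the series matrix values. Ms4a7 and Psd2 were measured on no Acinar or Beta array, and Ms4a7 on no 7m array either. In 8 members, Ddah2, Fam89b, Matn4, MGC27770, Nat8, Pga5, Slc38a5 and Tdh, 7m lay below Acinar and above Beta. The first of these directions turned under another scaling in Ddah2, Fam89b, Matn4, Nat8 and Pga5 and was no longer called in MGC27770, as given above. Slc38a5 and Tdh kept both calls under each scaling. For Tdh the difference from Beta is a bound of at least 1.1-fold (limma adjusted p = 0.0272), with no Beta array measuring it. That call was lost without 7m replicate 2 or 3 and without any single Beta array. The counts of 9 and 8 members have no count over all genes beside them either.

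**Figure D5:**
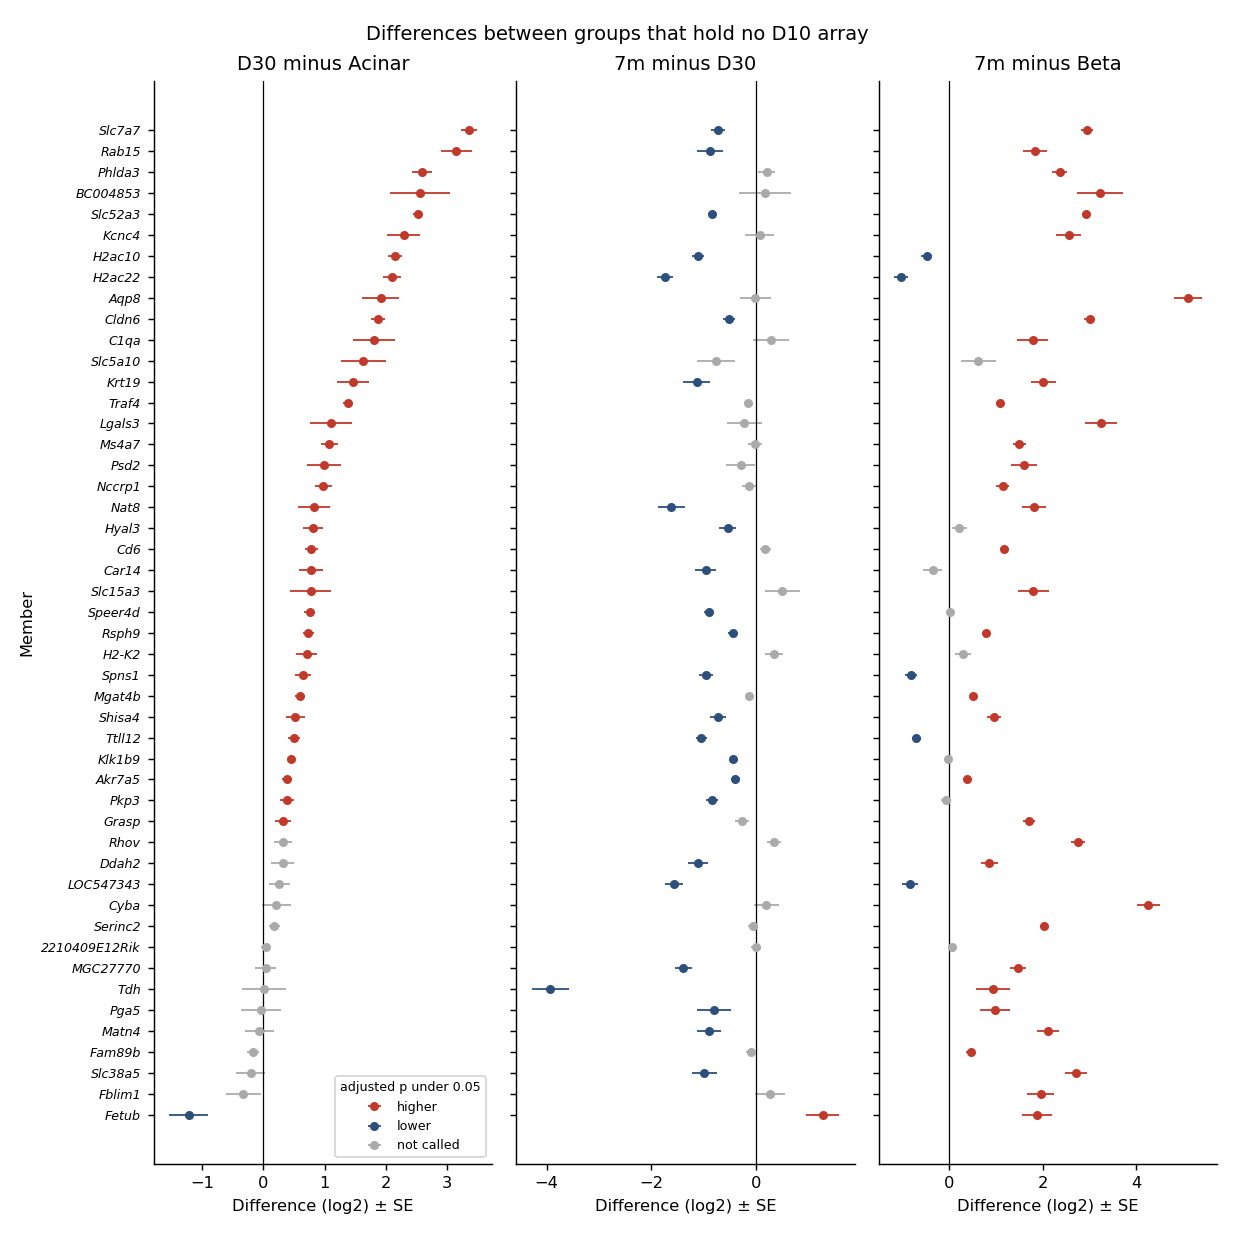
Difference (log2, ± SE from limma) of the 48 members in 3 comparisons without D10 arrays, ordered by D30 minus Acinar; red is called higher, blue called lower and grey not called at an adjusted p under 0.05. D30 minus Acinar has 34 higher and 1 lower, 7m minus D30 has 1 higher and 25 lower, and 7m minus Beta has 35 higher and 5 lower.

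Promoter windows were found for 31 of the 48 members, and motifs were counted in them on both strands beside all 27025 genes with a window. The E-box CAGCTG lay in windows of 9 members (29%) and of 18.3% of all genes, and the E-box CAGATG in 6 (19.4%) and 19.2%. TGANTCA lay in 3 (9.68%) and 8.97%. TGACGT, the core of a cyclic AMP response element, lay in 1, that of Cldn6 (3.23%), and 8.37%. TGATGNAA, an amino acid response element, lay in 2, those of Matn4 and Slc7a7 (6.45%), and 4.51%. A match is a run of letters and not a bound site, and the shares were not tested.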

How the data were processed

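The 18 arrays (Illumina MouseRef-8 v2.0 beadchips) fall into 6 groups of 3 by the labels. For each array the authors deposited, per symbol, an intensity and its detection p-value for 18118 symbols, per the file headers. The deposited series matrix held log10 values of 18112 symbols and served, on the log2 scale, as an alternative. Which software made them is not given in the sources used here.

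Intensities were background-corrected by normexp in limma 3.58.1 under R 4.3.3. For this, mean and SD of 798 negative controls per array were inferred from detection p-values on their grid of steps. The offset was 16, and values were quantile-normalized on the log2 scale. The 8942 symbols detected at p under 0.01 on at least 3 arrays were tested with lmFit and eBayes over all arrays, without a block. Same-numbered samples of the groups compared did not deviate together. On simulated data for 7m versus D30 over 8942 genes, 66% of genes changed 1.5-fold and 88% of those changed 2-fold were recovered. The simulation gave each gene 1 SD in all groups and independent arrays. It held neither the wider spread at 7m nor the shared deviations of D60 and 7m, so these rates may not hold for the data. The number of arrays limits the precision. Alternatives were median scaling, the series matrix, other offsets, filters, background settings and rule margins, a replicate block and leaving out each array.

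The members and the 33 gene lists were chosen with earlier results of these data known. The rule named the 15 members with the largest margin, members in a list, up to 6 members per direction and comparison with the largest called difference, the members and genes nearest the limit, and up to 2 other genes per list. The remaining members, the role groups, the CCAAT box and the promoters other than that of Ms4a7 were picked after their values were seen. Symbols were updated through RefSeq in 12 members: Nat8 (Cml4), Rsph9 (1700027N10Rik), Nccrp1 (LOC233038), Fam89b (Mtvr2), Krt19 (Krt1-19), H2-K2 (EG630499), Shisa4 (9330132O05Rik), Ttll12 (BC055368), H2ac22 (Hist1h2an), Slc52a3 (2310046K01Rik), H2ac10 (Hist1h2af) and Spns1 (2210013K02Rik). No match was found for 3.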

Additional observations from a re-analysis of the deposited data

How the results depend on the processing

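The set itself depended on the margin and on the scale. The rule gave 101 genes on background-corrected values (all 48 among them), 24 on median-scaled signals (19 shared), 17 on the series matrix values (13 shared), 111 at a margin of 0.8 and 4 at 1.5, and 44 to 51 when an array was left out. Scaling turned these signs (log2 differences). In 7m versus Acinar they were, under median scaling, Fam89b 0.564, Ttll12 0.256, Pkp3 0.269 and Spns1 0.356, and on the series matrix values Pga5 0.211, Ddah2 0.26, Nat8 0.322, LOC547343 0.018, Matn4 0.27, Fam89b 0.822, Ttll12 0.548, Pkp3 0.526 and Spns1 0.552. In 7m versus Beta they were Akr7a5 −0.117 under median scaling and Akr7a5 −0.139 on the series matrix values. In Beta versus Acinar they were LOC547343 0.758, Rsph9 0.753, Fam89b 0.51, Slc7a7 0.038, Pkp3 0.636 and Akr7a5 0.917 under median scaling and LOC547343 0.98, Rsph9 0.987, Fam89b 0.783, Slc7a7 0.283, Pkp3 0.78 and Akr7a5 1.268 on the series matrix values. In D30 versus Acinar it was Fetub 0.222 on the series matrix values. The cause was not tested.

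Counts moved as follows. 7m versus D30 had 2 higher members without background correction, at an offset of 50 or with genes detected on at least 6 arrays, and 0 with limma's own inference of the controls (that member, Fetub, was then not called). 7m versus Acinar had 7 lower after median scaling, and 37 higher and 2 lower on the series matrix values. Beta versus Acinar had 15 higher after median scaling, 18 higher and 14 lower on the series matrix values, and 3 higher with limma's own inference. D30 versus Acinar had 0 lower on the series matrix values and with limma's own inference. With only the compared groups fitted it had 39 higher and 3 lower. Leaving out an array gave 32 to 36 higher and 1 lower each time in D30 versus Acinar, 1 to 4 and 24 to 27 in 7m versus D30, 20 to 23 and 9 to 12 in 7m versus Acinar, 33 to 36 and 5 to 6 in 7m versus Beta, and 4 to 6 and 25 to 29 in Beta versus Acinar, with no change of sign. The most calls, 7, were lost without Acinar replicate 1 in 7m versus Acinar (Slc5a10, Lgals3, Pga5, Psd2, Fam89b, H2ac22 and Spns1).

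With the replicate number as a block, which does not pair the samples here, the calls were 36 higher and 1 lower in D30 versus Acinar, 2 and 26 in 7m versus D30, 23 and 12 in 7m versus Acinar, 35 and 5 in 7m versus Beta, and 5 and 28 in Beta versus Acinar. With D60 in place of 7m, chosen after seeing the data, 99 of the named results kept their side of the threshold and 2 did not. Same-numbered D60 and 7m arrays deviated together, and the members' median absolute difference between these groups was 0.058. This swap is therefore no independent check.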
